A study of Mus musculus with 40 samples.

Results

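The contractile apparatus of smooth muscle was followed in the jejunum through 10 genes, Acta2, Actg2, Myh11, Mylk, Cnn1, Tagln, Lmod1, Des, Synm and Myocd. Each gene was read from the brightest transcript cluster that carries its symbol alone, out of 36155 genes with such a cluster, and all 10 were found, each with 1 cluster. A transcript cluster is the unit into which the array groups the probes of a gene. RNA came from the jejunum, taken as the middle part of the small intestine, of female mice of 10 to 12 weeks, with 1 Affymetrix Mouse Transcriptome Array per mouse and 40 arrays in all. KO mice were Sftpd-/-, and thus without the collectin surfactant protein D, and had been backcrossed onto C57BL/6N. WT mice were their Sftpd+/+ littermates. Mice received either doxorubicin (Dox), an anthracycline that damages DNA in dividing cells, as 1 intraperitoneal injection of 20 mg/kg, or isotonic saline (NaCl), and were killed on day 3 or day 7. The 8 groups of 5 mice were KO-Dox3, KO-NaCl3, WT-Dox3, WT-NaCl3, KO-Dox7, KO-NaCl7, WT-Dox7 and WT-NaCl7. The whole bowel wall was measured, so fewer smooth muscle cells in a sample and less RNA of these genes per cell cannot be told apart, and the sources used here do not give the share of muscle in a sample.

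Smooth muscle of the gut lies mainly in the circular and longitudinal layers of the outer wall, which move the contents by peristalsis, with thinner sheets under the mucosa and around vessels. Calcium entering these cells binds calmodulin and activates myosin light chain kinase, which phosphorylates the regulatory light chain so that smooth muscle myosin can pull on actin filaments. Calponin, transgelin and leiomodin act on the actin filament, and desmin and synemin form the intermediate filaments that tie the filaments to the membrane. Most of these genes are switched on by serum response factor, which binds CArG boxes in their promoters, together with its coactivator myocardin.

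The region of 250 bases upstream of the start site was listed for 6 of the 10 genes (Acta2, Synm, Des, Cnn1, Lmod1 and Mylk) in the RefSeq annotation of GRCm38.p6. The pair of regions below is shown because they are the ones with a sequence like a CArG box, the element through which these genes are known to be read together. Capitals mark each match, 5′ to 3′ on the strand of the gene.
Acta2, chr19:34255374-34255623, minus strand: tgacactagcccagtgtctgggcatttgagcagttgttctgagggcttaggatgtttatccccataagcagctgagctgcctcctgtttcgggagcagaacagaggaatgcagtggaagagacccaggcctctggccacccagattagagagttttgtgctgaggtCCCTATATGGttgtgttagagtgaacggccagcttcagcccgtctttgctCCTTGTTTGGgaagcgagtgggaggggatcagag
Synm, chr7:67759743-67759992, minus strand: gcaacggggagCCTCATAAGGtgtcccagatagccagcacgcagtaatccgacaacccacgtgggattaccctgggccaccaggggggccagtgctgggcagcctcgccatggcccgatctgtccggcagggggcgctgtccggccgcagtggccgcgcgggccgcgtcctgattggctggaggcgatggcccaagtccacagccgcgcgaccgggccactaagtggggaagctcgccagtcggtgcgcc
The matches are CArG boxes in which 1 of the core bases is G or C in place of A or T, a pattern that reads alike on both strands. They lie at -84 to -75 and -34 to -25 from the start site in Acta2, and at -239 to -230 in Synm. Of all 32851 upstream regions of the same length, 2380 (7.24%) held such a match and 180 (0.548%) held at least 2. The full CArG box was in 0 of the 6 regions and in 482 (1.47%) of all regions. A match describes the letters of the window and is not a measured binding site.

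Signals are given as deposited, on the log2 scale, where a difference of 1 is a doubling. Because probes differ in brightness, a level was compared only within a gene. The 23 background probe sets had a mean of 3.45 and a highest value of 6.99. Myocd did not exceed this highest value on any of the 40 arrays and Lmod1 did so on 1, so their differences may be compressed, whereas the other 8 genes lay above it on every array. The probes of Acta2 and Actg2 may also take up RNA of the other actin genes, whose sequences are nearly the same. Sftpd itself was at 3.85 to 4.31 in KO mice and at 3.83 to 4.24 in WT mice, under the background limit in both genotypes, so the array does not check the genotypes. Correlations between arrays of a group were between 0.9748 and 0.9946. Mouse 102 of WT-Dox7 stood apart in the smooth muscle genes and had the highest mean of the 10 centred signals among the 40 mice (1.14). The tests of the 10 genes that use WT-Dox7, their group means and their correlations are therefore given with and without this mouse. The groups share 1 estimate of the spread, so this mouse also enters the errors of contrasts that do not use WT-Dox7. Where it changed, their count at an unadjusted p under 0.05 is also given without this mouse.

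At day 3 the contractile genes were lower after doxorubicin in KO mice. In limma, adjusted over 65956 clusters, 7 of the 10 fell (Actg2, Myh11, Synm, Des, Cnn1, Lmod1 and Mylk), 0 rose and 3 did not pass (Acta2, Tagln and Myocd). The methods' analysis of variance was run on the compared groups alone, without moderation of the variances. In it 3 of these 7 passed (Myh11, Synm and Mylk). Among all clusters in limma, 3.68% fell and 5.66% rose in this comparison. The shares of all clusters under the analysis of variance are not given here. All 10 differences were below 0, as were 60.4% of all clusters, with a median of -1.06 on the log2 scale against -0.04 over all clusters. In WT mice, 2 of the 10 fell (Synm and Mylk), against 2.13% of all clusters, and 8 did not pass, with a median difference of -0.31 against 0.00 over all clusters. After the arrays were quantile normalized again, 2.71% of clusters fell and 1.94% rose in WT mice, where 2.60% rose as deposited, and the same 2 genes fell. The median of the 10 genes in WT mice was then -0.49, with 10 differences below 0 where 8 were as deposited. Of all clusters, 50.1% were then below 0 and 48.7% as deposited.

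**Figure D1:**
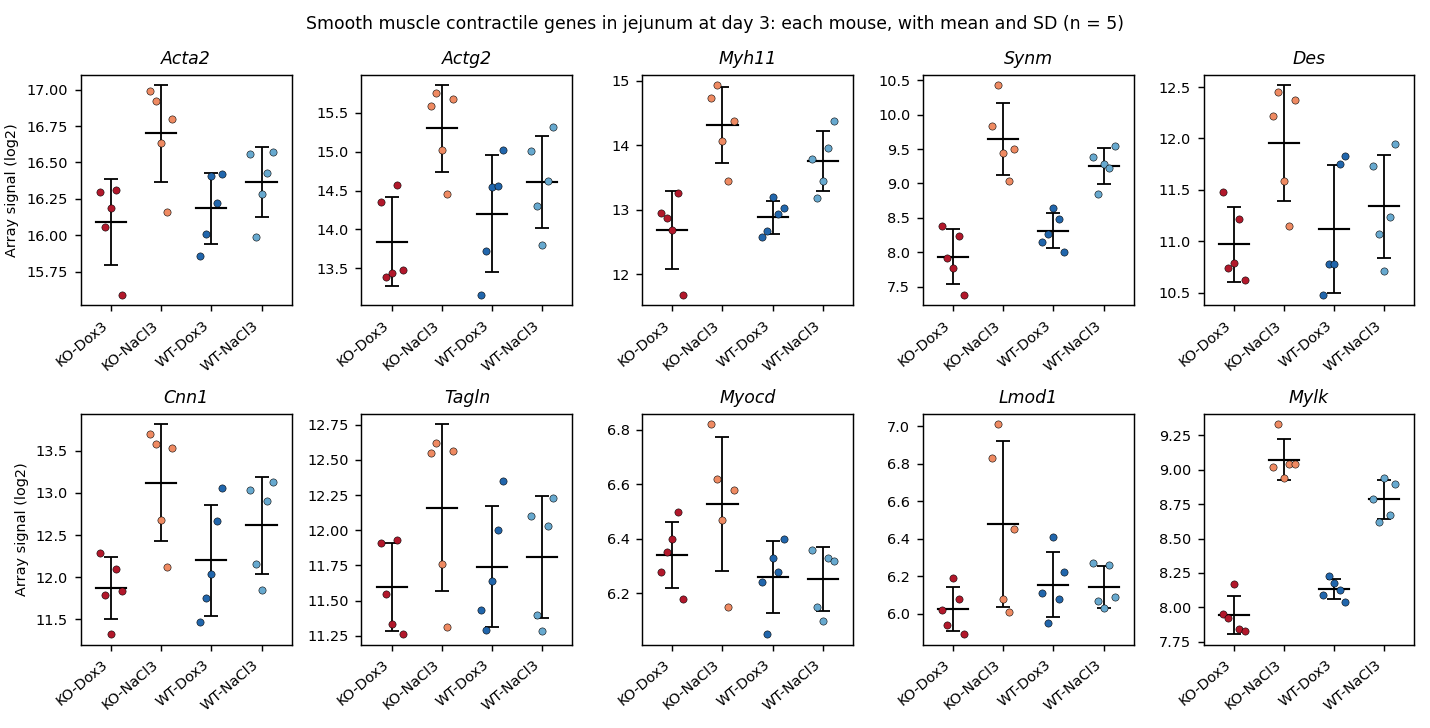
Log2 array signal of each of the 10 genes at day 3, with 1 point per mouse and the mean ± SD of 5 mice (horizontal line and bars), for KO-Dox3, KO-NaCl3, WT-Dox3 and WT-NaCl3 from left to right. Each panel has its own axis, which does not start at 0. The points of KO-Dox3 lie under all points of KO-NaCl3 for Myh11, Synm and Mylk, and those of WT-Dox3 under all points of WT-NaCl3 for Synm and Mylk.

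Myh11, which encodes the heavy chain of smooth muscle myosin and is the most specific marker of these cells, was at 12.95, 12.87, 12.69, 13.26 and 11.68 in KO-Dox3, against 14.73, 14.93, 14.06, 13.44 and 14.38 in KO-NaCl3. Every doxorubicin-treated KO mouse thus lay under every saline-treated one, and mouse 248 of KO-Dox3 lay lowest. Myh11 fell by 1.62 (SE 0.31, adjusted p = 3.23e-04 from limma), or 3.07-fold. In WT mice it was at 12.58, 12.67, 13.20, 12.93 and 13.02 in WT-Dox3, against 13.78, 13.18, 13.44, 13.96 and 14.38 in WT-NaCl3. The WT groups overlapped by 1 mouse of each, mouse 192 of WT-Dox3 and mouse 44 of WT-NaCl3, and the difference of -0.87 did not pass (adjusted p = 0.115).

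The 2 smooth muscle actins differed in size of effect. Actg2, the enteric form and a main actin of the visceral muscle layers, was at 14.35, 13.39, 13.44, 14.57 and 13.48 in KO-Dox3, against 15.59, 15.75, 15.02, 14.45 and 15.68 in KO-NaCl3. It fell by 1.45 (SE 0.35, adjusted p = 0.00405), although mouse 236 of KO-Dox3 lay above mouse 254 of KO-NaCl3. The call was lost in the unmoderated analysis of variance of the compared groups (adjusted p = 0.0590). In WT mice the groups overlapped over most of their ranges, with 13.16 to 15.02 in WT-Dox3 and 13.80 to 15.32 in WT-NaCl3, and the difference was -0.41 (adjusted p = 0.667). Acta2, the form shared with vessels and myofibroblasts, was at 16.30, 16.06, 16.19, 16.31 and 15.59 in KO-Dox3, against 16.99, 16.92, 16.63, 16.16 and 16.80 in KO-NaCl3. The difference of -0.61 in KO mice lay just short of the threshold (adjusted p = 0.0539). It passed without mouse 254, the lowest of KO-NaCl3 (-0.75, adjusted p = 0.0202). In WT mice Acta2 differed by -0.18 (adjusted p = 0.768).

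Of the genes that set off or temper contraction, Mylk changed most steadily from mouse to mouse. Mylk encodes myosin light chain kinase, the enzyme that starts contraction, and its cluster spans the whole gene, including the shorter forms and the long form that other cells use. It was at 7.95, 7.92, 8.17, 7.84 and 7.83 in KO-Dox3, against 9.02, 9.33, 8.94, 9.04 and 9.04 in KO-NaCl3. The highest doxorubicin-treated KO mouse was at 8.17 and the lowest saline-treated one at 8.94. In WT mice Mylk was at 8.09, 8.23, 8.18, 8.13 and 8.04 in WT-Dox3, against 8.79, 8.62, 8.94, 8.67 and 8.90 in WT-NaCl3, again without overlap. Mylk fell by 1.13 in KO mice (SE 0.12, adjusted p = 3.22e-08) and by 0.65 in WT mice (SE 0.12, adjusted p = 6.99e-04), which is 2.19-fold and 1.57-fold.

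Cnn1, the calponin that restrains the myosin ATPase on actin, was at 12.29, 11.79, 11.32, 12.10 and 11.83 in KO-Dox3, against 13.70, 13.58, 12.68, 12.12 and 13.54 in KO-NaCl3. The groups overlapped through mouse 254 of KO-NaCl3, and Cnn1 fell by 1.26 (SE 0.33, adjusted p = 0.00871). This call was lost in the unmoderated analysis of variance of the compared groups (adjusted p = 0.0911). In WT mice it differed by -0.42 (adjusted p = 0.630). Tagln, which encodes the actin-bundling protein transgelin, ranged between 11.26 and 11.93 in KO-Dox3 and between 11.31 and 12.62 in KO-NaCl3. Its differences of -0.56 in KO mice and -0.07 in WT mice did not pass (adjusted p = 0.239 and 0.953). Lmod1, a leiomodin that starts new actin filaments, ranged between 5.89 and 6.19 in KO-Dox3 and between 6.01 and 7.01 in KO-NaCl3. It fell by 0.45 in KO mice with little to spare (adjusted p = 0.0446). The call was lost without any of 7 of the 10 mice (adjusted p between 0.0645 and 0.220). It was also lost in a fit of the compared groups alone, with moderation (adjusted p = 0.212) and without it (adjusted p = 0.302).

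Of the intermediate filament genes, Synm had the largest difference of the 10. It encodes synemin, which links desmin filaments to the attachment plaques of the membrane, and was at 8.38, 7.92, 7.77, 8.24 and 7.38 in KO-Dox3, against 9.84, 10.43, 9.44, 9.03 and 9.50 in KO-NaCl3. In WT mice it was at 8.15, 8.26, 8.64, 8.49 and 8.01 in WT-Dox3, against 9.39, 8.84, 9.28, 9.23 and 9.54 in WT-NaCl3. The treated and saline groups did not overlap in either genotype. Synm fell by 1.71 in KO mice (SE 0.25, adjusted p = 8.96e-06) and by 0.95 in WT mice (SE 0.25, adjusted p = 0.0215). The WT call was lost without mouse 244 of WT-Dox3 (-0.87, adjusted p = 0.0691), mouse 14 of WT-NaCl3 (-0.91, adjusted p = 0.0524) or mouse 190 of WT-NaCl3 (-0.88, adjusted p = 0.0556). Des, which encodes desmin, was at 11.48, 10.74, 10.79, 11.22 and 10.63 in KO-Dox3, against 12.22, 12.45, 11.59, 11.15 and 12.37 in KO-NaCl3. It fell by 0.98 (SE 0.30, adjusted p = 0.0319), with mice 2 and 236 of KO-Dox3 above mouse 254 of KO-NaCl3. The call was lost without any of 6 mice (adjusted p between 0.0665 and 0.106). It was also lost in the unmoderated analysis of variance of the compared groups (adjusted p = 0.117). In WT mice Des differed by -0.22 (adjusted p = 0.826).

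Myocd, which encodes the coactivator of serum response factor, stayed between 6.18 and 6.50 in KO-Dox3 and between 6.15 and 6.82 in KO-NaCl3. Its difference was -0.19 in KO mice (95% CI -0.45 to 0.08, adjusted p = 0.510) and 0.01 in WT mice (95% CI -0.26 to 0.27, adjusted p = 0.990), with every signal within the range of the background probe sets.

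Without overlap between doxorubicin and saline were thus Myh11, Synm and Mylk in KO mice, 3 of 10 against 3.10% of all clusters, and Synm and Mylk in WT mice, 2 of 10 against 1.87%. In WT-Dox3 the 10 genes did not move as a block. Mice 232 and 244 had Actg2 at 14.56 and 15.02, Cnn1 at 12.67 and 13.06, Des at 11.75 and 11.83 and Tagln at 12.00 and 12.35, all within the range of WT-NaCl3 or above it. The same mice had Synm at 8.49 and 8.01 and Mylk at 8.13 and 8.04, under every mouse of WT-NaCl3, where the lowest were 8.84 and 8.62.

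**Figure D2:**
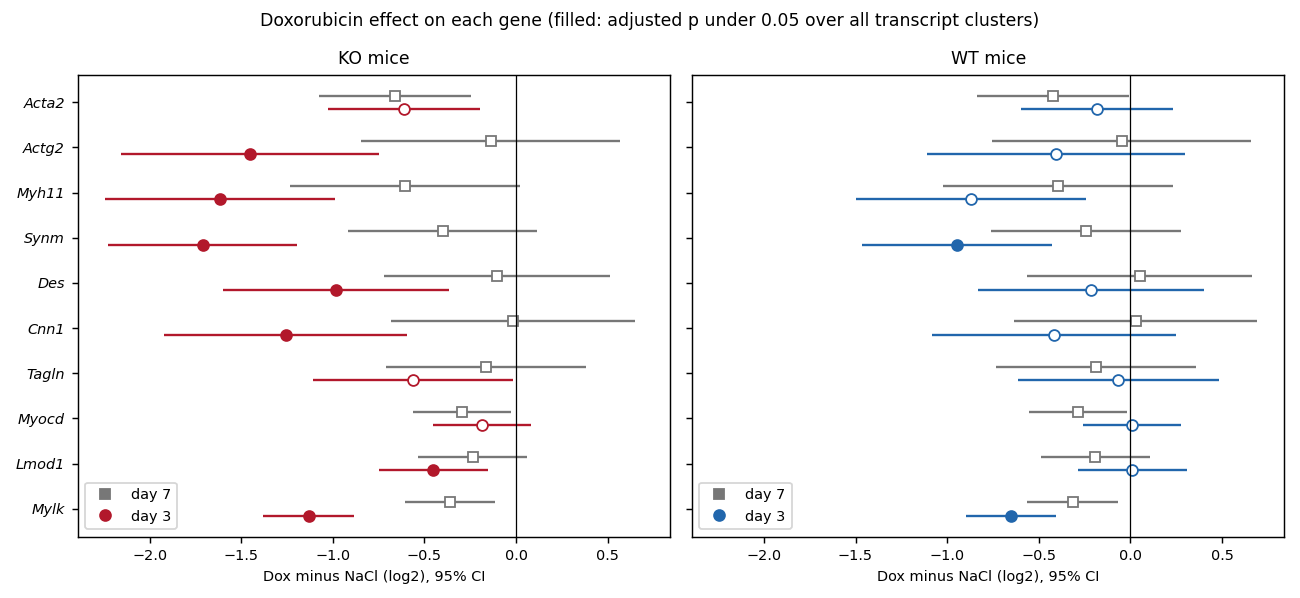
Difference of doxorubicin from saline for each gene (log2, point) with its 95% confidence interval (line), for KO mice on the left and WT mice on the right, with day 7 as grey squares and day 3 as coloured circles. Filled markers have an adjusted p under 0.05 over all clusters, and at day 7 none is filled.

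Set against each other at day 3, KO and WT mice did not differ detectably in any of the 10 genes. The effect of doxorubicin in KO mice minus that in WT mice was below 0 for all 10 genes and for 57.3% of all clusters. The 10 lay between -0.19 (Myocd) and -1.05 (Actg2), with a median of -0.62 against -0.04 over all clusters. In limma 0 of the 10 passed, as did 0 of all clusters, and 4 of the 10 (Actg2, Synm, Lmod1 and Mylk) had an unadjusted p under 0.05, against 6.49% of all clusters. The smallest p was that of Mylk (-0.48, 95% CI -0.83 to -0.13, unadjusted p = 0.00811 and adjusted p = 0.750 from limma). Without mouse 102, 6 of the 10 had an unadjusted p under 0.05, against 6.99% of clusters. The genotypes were also compared within each treatment. After doxorubicin, 9 of the 10 were lower in KO-Dox3 than in WT-Dox3, as were 59.7% of all clusters, by at most 0.37 (Synm, -0.37, adjusted p = 0.686). The median was -0.17 against -0.04 over all clusters. Here 0 passed against 0.0106% of clusters, with 0 at an unadjusted p under 0.05 against 8.43%. After saline, all 10 had a higher mean in KO-NaCl3 than in WT-NaCl3, as had 46.5% of all clusters, by 0.28 (Myocd) to 0.69 (Actg2). Of these 0 passed against 0.0258% of clusters, and Des, Myocd, Lmod1 and Mylk had an unadjusted p under 0.05 against 9.50% of clusters. Mylk, for example, averaged 9.07 ± 0.15 in KO-NaCl3 and 8.78 ± 0.14 in WT-NaCl3 (SD, n = 5 mice each, adjusted p = 0.459 from limma). Without mouse 102, 7 of the 10 had an unadjusted p under 0.05 after saline, against 9.94% of clusters. The unmoderated analysis of variance also called 0 of the 10 in each of these 3 contrasts. The 3 contrasts share mice and are not independent of each other.

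At day 7 no gene of the 10 passed between doxorubicin and saline in either genotype. In KO mice all 10 differences were below 0, as were 36.2% of all clusters. The 10 lay between -0.02 (Cnn1) and -0.66 (Acta2), with a median of -0.27 against 0.06 over all clusters, of which 0.920% passed. Acta2 was at 16.18, 16.25, 16.21, 15.92 and 16.22 in KO-Dox7, against 17.10, 16.86, 16.74, 16.53 and 16.85 in KO-NaCl7. It was the only gene of the 10 without overlap at day 7 in KO mice (1.68% of all clusters lay fully lower), with an unadjusted p of 0.00272 and an adjusted p = 0.125 from limma. Acta2 passed in a fit of the compared groups alone (adjusted p = 0.0311), with array weights (adjusted p = 0.0251) and with the interquartile range of the array signals as a covariate (adjusted p = 0.0321). Mylk (-0.36, adjusted p = 0.171) and Myocd (-0.29, adjusted p = 0.355) also had an unadjusted p under 0.05 (12.1% of all clusters did), and Mylk passed with array weights (adjusted p = 0.0120) and with each array centred on its median (adjusted p = 0.0358). After centring, 0.917% of all clusters were lower and 0.168% higher, where 0.602% were lower and 0.318% higher as deposited. Without mouse 102, 4 of the 10 genes had an unadjusted p under 0.05 in KO mice, against 12.5% of clusters.

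**Figure D3:**
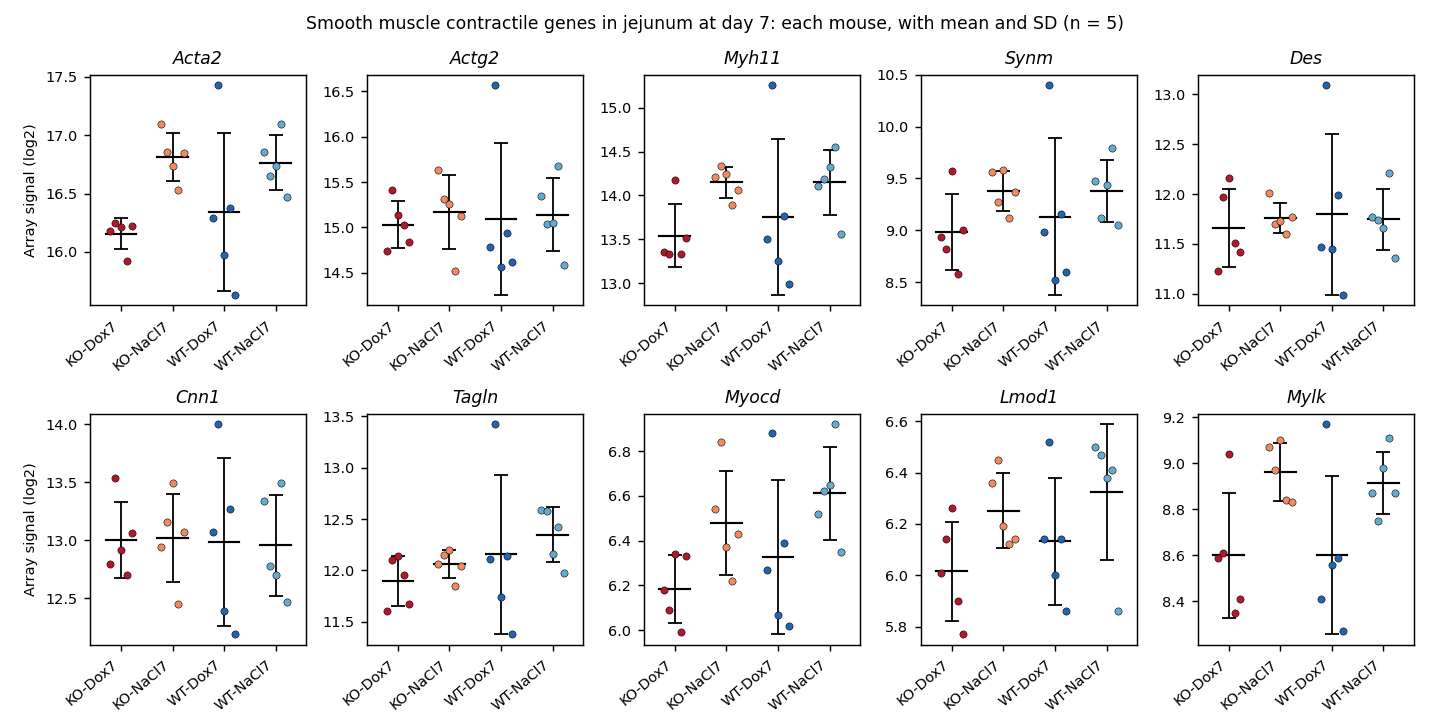
Log2 array signal of the 10 genes at day 7, drawn as for day 3, with 1 point per mouse and the mean ± SD of 5 mice. The highest point of WT-Dox7 is mouse 102 in every panel, and the points of KO-Dox7 lie under all points of KO-NaCl7 for Acta2 alone.

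In WT mice at day 7, 1 treated mouse lay above the others. Mouse 102 had the highest signal of WT-Dox7 in all 10 genes, with Acta2 at 17.43 against 15.63 to 16.38 in the other 4, Myh11 at 15.26 against 12.99 to 13.77, and Actg2 at 16.57 against 14.56 to 14.94. With this mouse, 8 of the 10 differences were below 0, as were 51.4% of all clusters, with a median of -0.22 (all clusters -0.01). In limma 0 passed, against 0.0182% of clusters. Acta2 (-0.42), Myocd (-0.29) and Mylk (-0.32) had an unadjusted p under 0.05, against 8.51% of clusters. Without mouse 102 all 10 were below 0 with a median of -0.44 (all clusters -0.02). Acta2 (-0.70, adjusted p = 0.0462) and Mylk (-0.46, adjusted p = 0.0357) then passed, against 0.564% of clusters. The effect of doxorubicin in KO minus WT mice at day 7 passed for 0 of the 10 and for 0 of all clusters, with and without mouse 102. With this mouse the median was -0.07 (all clusters 0.04), with 0 at an unadjusted p under 0.05 against 6.06% of clusters. Without it the median was 0.16 (all clusters 0.06), with the sign turned. KO-Dox7 and WT-Dox7 likewise did not differ detectably in any of the 10 (0 passed, against 0.00606% of clusters), with a median difference of -0.14 with mouse 102 and 0.15 without it. After saline, the 10 genes differed between KO-NaCl7 and WT-NaCl7 by -0.29 (Tagln) to 0.07 (Cnn1), with a median of 0.01, and 0 passed against 0.0773% of clusters.

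Between the 2 days, the difference from saline was smaller at day 7 in KO mice for Synm and Mylk. The effect of doxorubicin at day 7 minus that at day 3 in KO mice was 1.31 for Synm (SE 0.36, adjusted p = 0.0254 from limma) and 0.77 for Mylk (SE 0.17, adjusted p = 0.00493), and these 2 of 10 passed upward against 1.55% of all clusters. Synm averaged 8.98 ± 0.37 in KO-Dox7 and 9.38 ± 0.20 in KO-NaCl7, and 7.94 ± 0.40 in KO-Dox3 and 9.65 ± 0.52 in KO-NaCl3 (SD, n = 5 mice each). Mylk averaged 8.60 ± 0.27 in KO-Dox7 and 8.96 ± 0.13 in KO-NaCl7, and 7.94 ± 0.14 in KO-Dox3 and 9.07 ± 0.15 in KO-NaCl3. For both genes KO-Dox7 thus lay between KO-Dox3 and the saline groups. The contrasts of Actg2 (1.31, adjusted p = 0.126), Cnn1 (1.24, adjusted p = 0.125) and Myh11 (1.01, adjusted p = 0.202) were of similar size but did not pass. Acta2 had almost the same difference on both days, with a contrast of -0.05 (95% CI -0.64 to 0.54). In WT mice 0 of the 10 passed (0.841% of clusters did), and none had an unadjusted p under 0.05 against 9.91% of clusters. The median was 0.30 (all clusters -0.01), with Synm at 0.70 and Mylk at 0.33 nearest (adjusted p = 0.537 and 0.543). Without mouse 102 the median was -0.03, as was that of all clusters, and again 0 passed (1.46% of clusters did). Nearest were then Myocd at -0.43 (adjusted p = 0.261 from limma) and Acta2 at -0.51 (adjusted p = 0.393). These 2 of the 10 had an unadjusted p under 0.05, against 10.9% of clusters, and Synm and Mylk were at 0.39 and 0.19. In KO mice Synm no longer passed when 1 of 3 mice was left out, namely mouse 248 of KO-Dox3 (1.17, adjusted p = 0.0590), mouse 136 of KO-Dox7 (1.16, adjusted p = 0.0697) or mouse 182 of KO-NaCl3 (1.11, adjusted p = 0.0674).

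Over the 8 groups, KO-Dox3 had the lowest mean for 8 of the 10 genes, and KO-Dox7 for Myocd and Lmod1. Without mouse 102, WT-Dox7 had the lowest mean for Acta2. KO-NaCl3 had the highest mean for 7 genes, KO-NaCl7 for Acta2, and WT-NaCl7 for Tagln and Myocd. Neighbours in these orders overlapped in their ranges at all steps but 2, which were KO-Dox7 over WT-Dox3 for Myh11 and WT-Dox7 over WT-Dox3 for Mylk, and without mouse 102 at all but that of Mylk. Mylk means ran from 7.94 ± 0.14 in KO-Dox3 and 8.13 ± 0.07 in WT-Dox3 through 8.60 ± 0.34 in WT-Dox7 (8.46 ± 0.15 without mouse 102) and 8.60 ± 0.27 in KO-Dox7 to saline groups between 8.78 ± 0.14 (WT-NaCl3) and 9.07 ± 0.15 (KO-NaCl3). Every mouse of both Dox3 groups lay under every mouse of the other 6 groups in Mylk. The range of Cnn1 means was 11.87 ± 0.37 in KO-Dox3 to 13.12 ± 0.69 in KO-NaCl3, and both Dox7 groups (13.00 ± 0.33 in KO-Dox7 and 12.98 ± 0.73 in WT-Dox7, or 12.73 ± 0.52 without mouse 102) overlapped with the saline groups of day 7.

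The 10 genes varied together from mouse to mouse. After the mean of each group was taken out, the Pearson correlations of the 45 pairs over the 40 arrays lay between 0.31 and 0.92 with a median of 0.71, and without this step between 0.48 and 0.95. Des with Tagln (0.92), Myh11 with Synm (0.90) and Actg2 with Des (0.90) were most alike. Mylk stood most apart, with 0.31 to Cnn1, 0.41 to Actg2 and 0.44 to Tagln. Without mouse 102, the correlations with group means taken out lay between 0.12 (Cnn1 with Mylk) and 0.89 with a median of 0.63, and those of Mylk with Actg2 and Tagln were both 0.16. The points share tissue pieces and arrays, so these values describe the samples and were not tested. The mean of the 10 centred signals correlated with the interquartile range of the array signals at -0.24, and at -0.31 with group means taken out, and the part of this measure in the results was not tested beyond its use as a covariate.

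**Figure D4:**
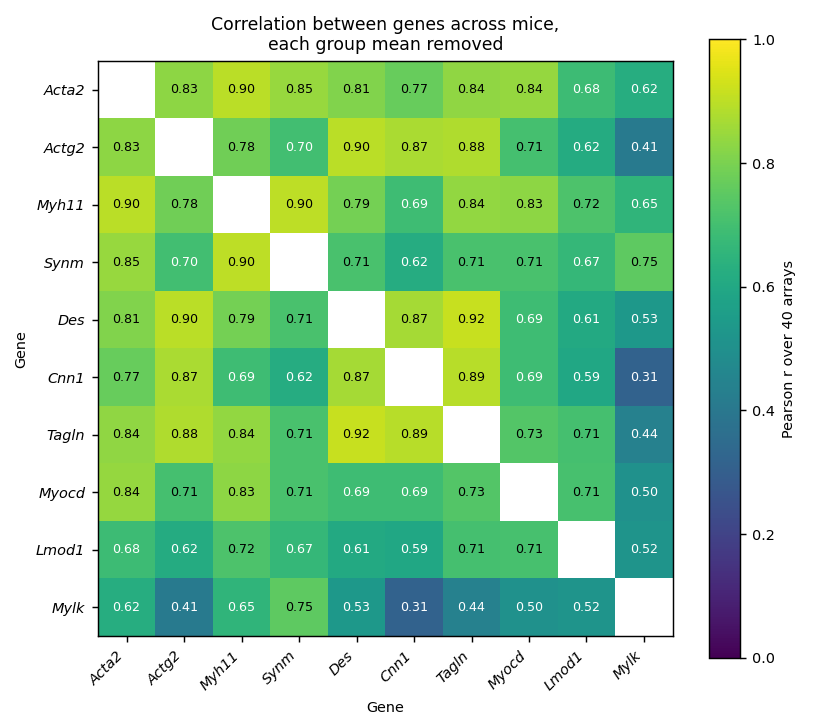
Pearson correlation of each pair of the 10 genes over 40 arrays after the mean of each group was taken out, as colour and number. The values run from 0.31 for Cnn1 with Mylk to 0.92 for Des with Tagln, and the row of Mylk holds the lowest ones.

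Among 20557 other named genes, those whose signals over the 40 arrays were most like the mean of the 10 centred signals were Tpm2 (Pearson r 0.957), Flna (0.909), Synpo2 (0.907), Myl9 (0.904), Sparcl1 (0.900), Tm6sf1 (0.895), Tns1 (0.887), Fbxl22 (0.875), Pdlim3 (0.859) and Slc24a3 (0.856). Tpm2 encodes a tropomyosin, Flna a filamin that crosslinks actin, Synpo2 a protein of the Z-disc and dense bodies, Myl9 the regulatory light chain of smooth muscle myosin, Tns1 a tensin of focal adhesions and Pdlim3 an alpha-actinin partner. With group means taken out, Flna (0.935), Tpm2 (0.923), Tns1 (0.902), Csrp1 (0.878), Myl9 (0.873), Cald1 (0.850), Pgm5 (0.842), Sparcl1 (0.842), Pdlim3 (0.837) and Kcnmb1 (0.835) led, so that 6 genes were in both lists. Without mouse 102, 9 of the first 10 genes and 7 of the second 10 were again among the 10 most alike. Myl9, the substrate of the kinase that Mylk encodes, differed by -1.96 in KO mice at day 3 (adjusted p = 1.88e-06), by -1.09 in WT mice at day 3 (adjusted p = 0.0101) and by -1.11 in KO mice at day 7 (adjusted p = 0.0312), and thus fell in these 3 comparisons. In WT mice at day 7 it differed by -0.73 (adjusted p = 0.391), and it did not pass without mouse 102 either (adjusted p = 0.0536). Cald1, with the same mouse-to-mouse pattern, differed by only -0.09 in KO mice at day 3 (adjusted p = 0.896).

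The wider contractile machinery was read from lists of genes around the 10. Over all clusters at day 3, 3.68% fell and 5.66% rose in KO mice, and 2.13% fell and 2.60% rose in WT mice. At day 7 in KO mice 0.602% fell and 0.318% rose. Of 18 other contractile and cytoskeletal genes, 8 fell and 1 rose in KO mice at day 3, with a median of -0.51, led after Myl9 by Synpo2 (-1.47) and Tpm2 (-1.25). The one that rose was Actn1 (0.71), which encodes an alpha-actinin and also rose in WT mice (0.74). In WT mice 2 of the 18 fell, Myl9 and Ldb3 (-0.85), with a median of -0.12. Of 19 genes of contraction signalling, 6 fell and 0 rose in KO mice (median -0.37), among them the muscarinic receptor gene Chrm2 (mean 6.57 in KO-Dox3, under the background limit, against 7.57 in KO-NaCl3), the cyclic GMP phosphodiesterase gene Pde5a (-0.80) and Ppp1r12a (-0.61), the targeting subunit of the phosphatase that opposes the kinase. In WT mice Pde5a fell (-0.94) and Gucy1b1, a subunit of the nitric oxide receptor, rose (0.63). Of 7 genes listed as transcription factors of smooth muscle, Klf4 fell in KO mice (-0.85) and Nkx2-3 rose in WT mice (0.68). The mean signal of Klf4 over the 40 arrays was 11.82, and from which cells of the wall it came was not tested. The mean signal of Nkx2-3 over the 40 arrays, 6.99, was level with the background limit. At day 7 in KO mice, Myl9, the potassium channel gene Kcnma1 (-0.59), the muscarinic receptor gene Chrm3 (-0.82), the calcium release channel gene Ryr2 (-0.38) and the transcription factor gene Mef2c (-1.27) fell, of which Chrm3, Ryr2 and Mef2c had a mean signal under the background limit over the 40 arrays. In WT mice at day 7 no gene of these lists passed, and without mouse 102 Synpo2 fell (-0.95, adjusted p = 0.0124).

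Markers of other cells that lie in or near the muscle were read beside these changes at day 3. The counts stand against 3.68% of all clusters lower and 5.66% higher in KO mice, and 2.13% and 2.60% in WT mice. Of the interstitial cells of Cajal, which pace the muscle, Kit fell in KO mice (-0.97, adjusted p = 0.0449 from limma). The other marker of this list, Ano1, did not pass (adjusted p = 0.786). Both had a mean above the background limit, although the lowest signal of Ano1 was 6.75. Of 14 markers of enteric neurons and glia 0 passed in either genotype, and 11 of them were at or under the background limit. Of 7 fibroblast genes, 3 rose and 1 fell in KO mice (Col6a1 at 1.24, Fbln1 at -0.91) and 4 rose in WT mice (Col6a1 at 1.48). The log2 of the summed linear signal of this list ranged between 12.85 and 13.76 in KO-Dox3, 12.15 and 13.39 in KO-NaCl3, 13.05 and 13.94 in WT-Dox3, and 12.55 and 13.18 in WT-NaCl3. Of 6 pericyte genes, Rgs5 fell (-1.12) and Kcnj8, with a mean signal under the background limit, rose (0.75) in KO mice, and 4 rose in WT mice. However, 3 of the 6 had a mean at or under that limit in WT-NaCl3 and 2 in WT-Dox3. The sums of this list were between 12.15 and 13.08 in KO-Dox3, 13.30 and 14.21 in KO-NaCl3, 12.54 and 13.26 in WT-Dox3, and 12.59 and 13.08 in WT-NaCl3. The brightest gene weighs most in such a sum, here Rgs5 (mean 12.88 over the 40 arrays), and Dcn (12.13) in the fibroblast list. The pericyte sums thus mainly follow Rgs5, while 4 of the 6 genes had a difference above 0 in KO mice. Of 5 endothelial genes, 0 passed in KO mice and 3 rose in WT mice. Of 8 epithelial genes, 1 rose and 1 fell in each genotype, and the sums were 20.06 to 20.25 in KO-Dox3, 20.19 to 20.56 in KO-NaCl3, 19.83 to 20.44 in WT-Dox3 and 19.99 to 20.62 in WT-NaCl3. The 4 mesothelial markers were all at or under the background limit, where 2 of them were lower in KO-Dox3. Of 8 markers of striated muscle, 7 were at or under that limit in each group of day 3, and 2 fell in KO mice and 1 in WT mice, with Tnnt2 falling in both (-1.31 in KO mice and -0.98 in WT mice). The summed signal of the 10 smooth muscle genes themselves ranged between 16.14 and 16.95 in KO-Dox3, 16.84 and 17.85 in KO-NaCl3, 16.33 and 17.17 in WT-Dox3, and 16.68 and 17.45 in WT-NaCl3. At day 7 in KO mice, 1 gene each of the Cajal, neuron and glia, fibroblast, pericyte and epithelial lists fell and 0 rose. Over all clusters 0.602% fell and 0.318% rose. In WT mice at day 7 no gene of the cell lists passed. Without mouse 102, Kit (-1.22, adjusted p = 0.0330 from limma), Rgs5 (-1.04, adjusted p = 0.0326) and Tnnt2 (-0.83, adjusted p = 0.0334) fell there. The part of the other cell types in these results was not tested.

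**Figure D5:**
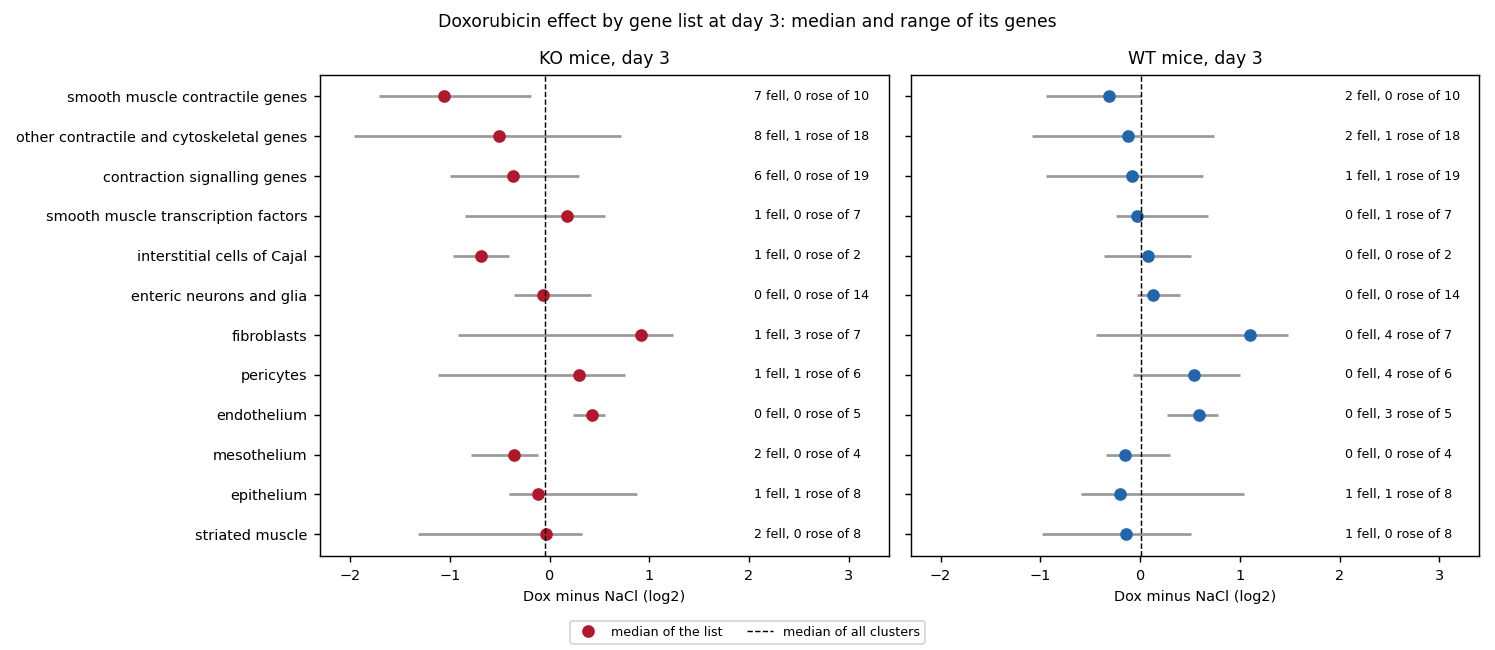
Difference of doxorubicin from saline at day 3 (log2) for the 10 smooth muscle genes and 11 other gene lists, with the median of each list as a point and the range of its genes as a grey line, for KO mice on the left and WT mice on the right. The numbers count the genes past the threshold in each direction, and the dashed line is the median of all clusters. The smooth muscle genes have the lowest median of the lists in both panels.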

How the data were processed

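Jejunal RNA of 40 mice in 8 groups of 5 was measured on 1-colour arrays, with 1 array per mouse. The authors deposited log2 signals for 72688 probe sets. The submitters' notes name RMA in Affymetrix Expression Console, whereas the study's methods describe limma's normexp correction of the background followed by quantile normalization. The deposited signals were used without further normalization. Tables of the authors' own comparisons of saline with doxorubicin in KO mice, with their folds and p-values, were used for gene symbols and positions only. After 6732 control probe sets were left out, 65956 transcript clusters remained, of which 36559 carry 1 symbol.

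A model with 1 mean per group was fitted in limma 3.58.1 under R 4.3.3. The 12 contrasts were doxorubicin against saline, KO against WT, and the differences of the doxorubicin effect between genotypes and days. P-values from limma were adjusted over all clusters (Benjamini-Hochberg, threshold 0.05). The model was tested on simulated data. Positions are on GRCm38. The number of arrays limits the precision.

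The genes, the lists and the tests were chosen with earlier results of these data known. The rule named all 10 genes, up to 3 of the genes past the threshold with the largest change in each of the 11 other lists, and the 10 genes most like the set by Pearson correlation over the 40 arrays, with and without the group means taken out. The 11 lists held 103 genes, of which 98 were matched, and Myl6, Pdlim7, Gucy1a1, Etv1 and Pdgfra were not analysed here. Alternatives were a fit of the compared groups and the methods' analysis of variance of the same groups without moderation. Others were a brightness filter, array weights, robust variances with a trend, a repeat of quantile normalization, centring, the mean over clusters and each mouse left out. The interquartile range of the array signals as a covariate was chosen after seeing the data. So were the levels, correlations, other lists and counts at an unadjusted p without mouse 102. Figures were drawn with matplotlib 3.10.9.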

Additional observations from a re-analysis of the deposited data

Results flagged for a closer look

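In 5 of the 80 combinations of a gene and a group, 1 mouse lay far from the other 4 by Dixon's criterion for 5 values, and chance alone gives about 1 in 20 such groups. These were Acta2 in mouse 42299 of KO-Dox7 (15.92, next 16.18), Actg2 in mouse 102 of WT-Dox7 (16.57, next 14.94), Myh11 in mouse 136 of KO-Dox7 (14.18, next 13.51), Lmod1 in mouse 296 of WT-NaCl7 (5.86, next 6.38) and Mylk in mouse 182 of KO-NaCl3 (9.33, next 9.04). The effect of doxorubicin in KO mice differed between day 7 and day 3 for Synm by 1.31 and for Mylk by 0.77 on the log2 scale, by the limma test of the difference itself.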

How the results depend on the processing

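Of 2680 values of single genes under other settings, 2637 stayed on the same side of the threshold, 32 lost and 11 gained their call, and 0 of the called values turned sign. Among the 2637, 163 changed sign where the gene passed in neither setting. The count of genes past the threshold for doxorubicin in KO mice at day 3 was 7. It became 3 (Myh11, Synm and Mylk) with the methods' unmoderated analysis of variance, which was run on the compared groups alone. There Actg2 (adjusted p = 0.0590), Cnn1 (0.0911), Des (0.117) and Lmod1 (0.302) were lost. The count was 5 with the covariate (Des at 0.0509 and Lmod1 at 0.0816 were lost). It was 6 in the fit of the compared groups, with trend and robust variances, with repeated quantile normalization and with centring (Lmod1 was lost). It was 8 with the brightness filter, array weights and the mean over clusters (Acta2 was gained). It ranged between 5 and 8 when each mouse was left out. In WT mice at day 3 the count was 2 and became 1 with the unmoderated analysis (Synm at adjusted p = 0.0664) and 1 with the interquartile range as a covariate (Synm at 0.108), with 1 to 2 when mice were left out. In KO mice at day 7 the count was 0 and became 1 in a fit of the compared groups, 2 with array weights, 1 with centred arrays and 1 with the covariate, and stayed at 0 without any 1 mouse. In WT mice at day 7 it was 0 to 2 when mice were left out. For the difference between days in KO mice it was 2, became 1 with the covariate (Synm at 0.96, adjusted p = 0.107) and was 1 to 2 when mice were left out. All other contrasts kept 0 under every alternative run.

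In the contrast between days in KO mice, the median of all clusters was 0.10 as deposited and 0.00 with each array centred, and that of the 10 genes 0.83 and 0.72, with 3.37% of clusters lower and 1.55% higher as deposited against 3.98% and 0.673%. No paired analysis was possible because the mouse numbers are not shared between groups. Signals of Myocd and Lmod1 within the background range and 5 mice per group limit what can be detected. Which of the preprocessing descriptions holds for the deposited signals is unknown.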
